A study of Mus musculus with 4 samples.

Results

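The genes described here encode 10 secreted proteins of the extracellular matrix that are not collagens. They are the small leucine-rich proteoglycans Aspn, Lum and Bgn, the matricellular proteins Postn, Tnc, Thbs1, Thbs2 and Sparc, and the glycoproteins Fn1 and Fbln2. They were taken as a fixed list of symbols and looked up by Entrez gene ID in the deposited value table, where all 10 were found among 23185 named genes. The list was chosen from the signals of these same arrays, so all counts and differences of the 10 below, which share the 3w+Dox, Day0 or other arrays of that choice, are descriptions of the chosen genes and support nothing by themselves. Fn1, which forms fibrils, and Fbln2, a fibulin, belong to neither of the 2 classes and were listed with them as non-collagen matrix genes.

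RNA of 4 mouse populations was hybridised to Affymetrix arrays, 1 array for each. Day0 was the club cell isolate of adult lung before culture. The 3w+Dox cells, called Club-iPL in the labels, were such cells after 3 weeks in doxycycline, and the 3w+Dox+2w-Dox cells, called withdrawn cells here, had a further 2 weeks in medium free of the drug. The iPS cells, called Club-iPS in the labels, were induced pluripotent cells made from club cells. Doxycycline is used to switch on inducible transgenes; the series title names interrupted reprogramming, and the labels name no transgene, sort, feeder layer or number of animals. Values are log2 signals from RMA, a method that corrects background, makes the arrays' distributions alike and summarises the probes of each gene. The array medians lay between 6.60 and 6.74. A gene is called higher or lower in one population than in another when the signals differ at least 4-fold, which is 2 log2 units, and the brighter one reaches 6.67, the median over every value of the table. With 1 array per population no difference has a replicate spread or a p-value, and precision is limited by the small number of arrays. Signals of different genes come from different probes, so only differences are compared between genes.

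Small leucine-rich proteoglycans have a core of leucine-rich repeats, bind collagen fibrils and control their width and spacing. Matricellular proteins are secreted into the matrix to regulate adhesion, growth factor activity and repair, with little part in its mechanical frame. In lung, both classes are made mainly by fibroblasts and related mesenchymal cells, and both increase in wound repair and fibrosis.

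All 10 genes had their lowest signal at Day0, their next lowest in iPS cells and their 2 highest in 3w+Dox and withdrawn cells. The 3w+Dox array was above Day0 by 3.00 to 8.12 log2 units, with a median of 6.24, beside a median of -0.09 over all named genes. All 10 were called higher, beside 4.31% of all named genes. At 2-fold it was also all 10, beside 8.67%, and at 8-fold 8, beside 2.18%. The list was chosen on this contrast, and nothing is read from these counts. The withdrawn cells stayed within 0.59 log2 units of the 3w+Dox cells for every one of the 10. The iPS cells stood between Day0 and 3w+Dox, near the 3w+Dox signal for Fn1 and Bgn and far below it for Aspn, Lum and Postn.

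**Figure D1:**
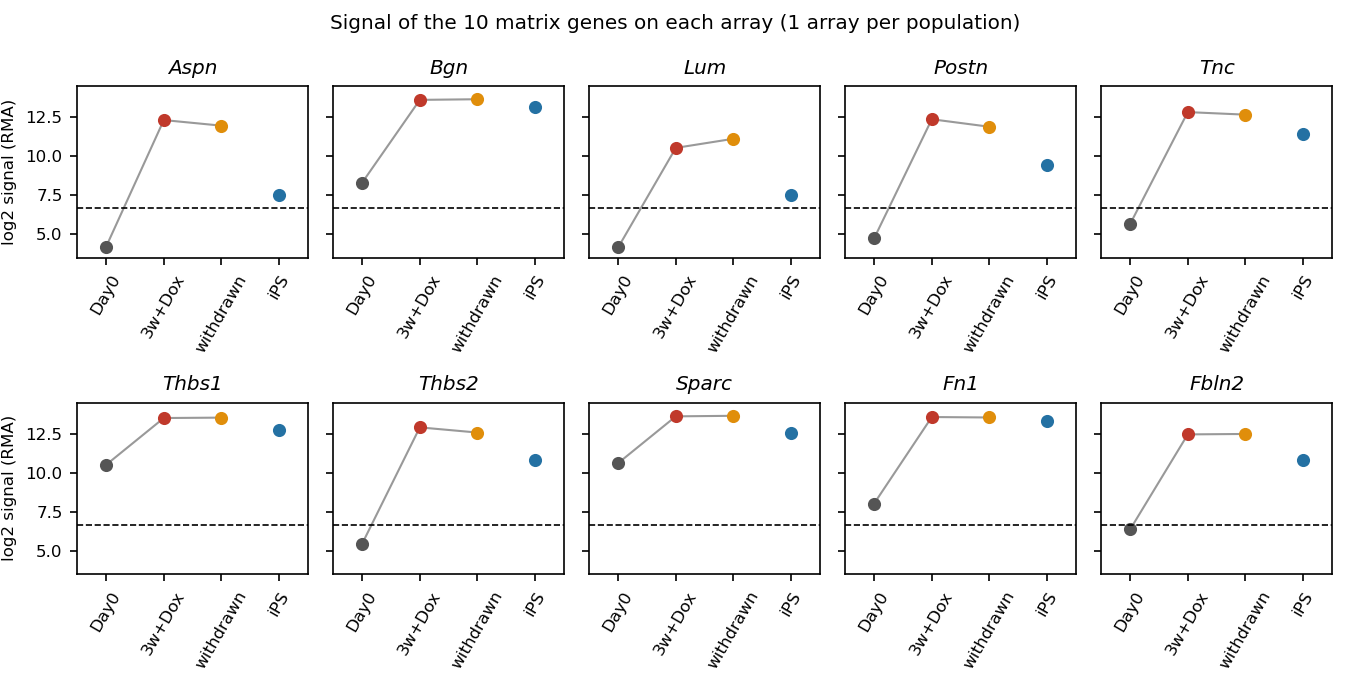
Log2 signal (vertical axis) of each of the 10 matrix genes on the arrays of Day0, 3w+Dox, withdrawn (3w+Dox+2w-Dox) and iPS cells (horizontal axis), with 1 point per array, a line through the culture series and a dashed line at 6.67, the median of all values. Day0 is the lowest point in all 10 panels, and the iPS point lies between Day0 and 3w+Dox in all 10.

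Among the proteoglycans, Aspn encodes asporin, which binds collagen and restrains TGF-beta and BMP signalling. Its signal was 4.20 at Day0, 12.32 in 3w+Dox cells and 11.96 in withdrawn cells, and 7.48 in iPS cells. The 3w+Dox signal was 278-fold that of Day0, the highest-ranked difference of all named genes (rank 1). The Day0 signal lay below 5.07, the 25th percentile of all values, and with such signals raised to that percentile the Aspn difference was 7.25 in place of 8.12 log2 units. That is below the 7.46 of Thbs2, whose Day0 signal lay above that percentile, so rank 1 depends on the dim Day0 signal of Aspn. Lum encodes lumican, a keratan sulfate proteoglycan that keeps collagen fibrils thin and evenly spaced. The Lum signal was 4.15 at Day0, 10.53 in 3w+Dox cells and 11.12 in withdrawn cells, and 7.52 in iPS cells. It was 83.5-fold higher in 3w+Dox cells than at Day0, a difference of 6.38, or 5.46 with the dim Day0 signal raised. Lum had the largest withdrawn minus 3w+Dox difference of the 10, at 0.59. Bgn encodes biglycan, which carries chondroitin or dermatan sulfate chains and, when released from the matrix, binds Toll-like receptors. Its signal was 8.30 at Day0, 13.61 in 3w+Dox cells and 13.65 in withdrawn cells, and 13.13 in iPS cells. Unlike Aspn and Lum, Bgn was above 6.67 already at Day0, and it was 39.7-fold higher in 3w+Dox cells.

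Among the matricellular genes, Postn encodes periostin, a fasciclin-domain protein that binds integrins and promotes collagen cross-linking. It gave 4.73 at Day0, 12.37 in 3w+Dox cells, 11.89 in withdrawn cells and 9.45 in iPS cells, a 199-fold higher signal in 3w+Dox than in Day0 cells. Like those of Aspn and Lum, the Postn signal at Day0 lay below 5.07, the 25th percentile of all values, so this fold rests on a dim signal. Tnc encodes tenascin C, a large glycoprotein of developing and healing tissue. The Tnc signal was 5.65 at Day0, 12.83 in 3w+Dox cells and 12.66 in withdrawn cells, and 11.44 in iPS cells, which is 144-fold higher in 3w+Dox cells than at Day0. Thbs2 encodes thrombospondin 2, an inhibitor of angiogenesis whose loss in mice disturbs collagen fibrils. Its signal was 5.44 at Day0, 12.90 in 3w+Dox cells and 12.57 in withdrawn cells, and 10.78 in iPS cells, a 177-fold difference between 3w+Dox and Day0. These 3 genes lay below 6.67 at Day0 and well above it on each other array.

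Thbs1 and Sparc were bright already at Day0. Thbs1 encodes thrombospondin 1, which activates latent TGF-beta and binds the receptors Cd36 and Cd47. Its signal was 10.50 at Day0, 13.50 in 3w+Dox cells, 13.53 in withdrawn cells and 12.72 in iPS cells. Sparc encodes a calcium-binding glycoprotein that binds collagen and loosens cell adhesion. Its signal was 10.61 at Day0, 13.61 in 3w+Dox cells, 13.65 in withdrawn cells and 12.53 in iPS cells. Both differed by 3.00 log2 units between 3w+Dox and Day0, at ranks 506 and 510 of all named genes, while the other 8 members ranked 1 to 89. In 3w+Dox cells Thbs1 and Sparc lay 0.35 and 0.24 log2 units below the brightest signal of that array, 13.85, where signals can be compressed. Bgn and Fn1 lay 0.24 and 0.28 below it, and the part of compression in the differences of these 4 genes was not tested. Thbs1 and Sparc had nearly the same profile, with a distance of 0.27 log2 units over the 4 arrays once each was centred on its own mean.

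Fn1 encodes fibronectin, which cells assemble into fibrils through integrins and on which other matrix proteins are laid down. The Fn1 signal was 8.02 at Day0, 13.57 in 3w+Dox cells and 13.54 in withdrawn cells, and 13.29 in iPS cells. Fbln2 encodes fibulin 2, which binds fibronectin and elastic fibres. The Fbln2 signal was 6.36 at Day0, 12.46 in 3w+Dox cells and 12.48 in withdrawn cells, and 10.80 in iPS cells. Both were called higher in 3w+Dox cells than at Day0, Fn1 by 46.7-fold and Fbln2 by 68.2-fold.

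Sequence upstream of the start site was at hand for 7 of the 10 genes, from RefSeq with the build GRCm38.p6, as 9 windows of 250 bases because Postn and Tnc have 2 annotated start sites each. The Tnc windows overlap. Shown are the genes whose differences frame the results: Aspn, with the widest range, Bgn, which stayed bright in iPS cells, and the window of Postn that holds a TATA element. The Aspn window is chr13:49544193-49544442 on the plus strand, and the Bgn window is chrX:73483351-73483600 on the plus strand. The Postn window is chr3:54360857-54361106 on the plus strand. Each ends 1 base before the start site and reads 5′ to 3′ along the gene, with the motif matches in capitals.
Aspn: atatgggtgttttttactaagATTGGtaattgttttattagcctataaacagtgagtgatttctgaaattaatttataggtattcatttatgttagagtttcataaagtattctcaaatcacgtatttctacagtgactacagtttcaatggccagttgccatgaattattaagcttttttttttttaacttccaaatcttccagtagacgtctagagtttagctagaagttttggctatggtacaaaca
Bgn: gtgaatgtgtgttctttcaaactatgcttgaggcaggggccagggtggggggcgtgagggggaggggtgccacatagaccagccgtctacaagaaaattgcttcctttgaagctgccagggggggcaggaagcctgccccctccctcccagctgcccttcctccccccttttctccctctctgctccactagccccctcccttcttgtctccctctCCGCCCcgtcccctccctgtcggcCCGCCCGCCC
Postn: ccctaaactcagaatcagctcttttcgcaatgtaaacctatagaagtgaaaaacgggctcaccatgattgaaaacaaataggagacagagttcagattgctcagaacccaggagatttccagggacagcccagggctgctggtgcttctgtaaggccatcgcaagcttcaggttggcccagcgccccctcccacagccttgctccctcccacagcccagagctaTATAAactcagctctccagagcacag
The capitals mark TATAA on the gene's strand between 40 and 16 bases before the start, and GGGCGG (the GC box) and CCAAT on either strand. TATAA stood 26 bases before the start in this Postn window and 27 bases before it in the Tnc window chr4:64046937-64047186 on the minus strand, and was absent at that place in the other 7 windows, beside a share of 3.52% of 32851 windows in the whole table. Bgn held 3 GC boxes within 34 bases of its start, the 2 nearest to it overlapping each other. GC boxes stood in 4 of the 9 windows, beside 32.7% of all windows. These windows belong to 3 of the 7 genes, Bgn, Tnc and Fbln2, and the overlapping Tnc windows share theirs. A CCAAT stood in the Aspn window and in that of Thbs2, beside 33.8% of all windows. TGANTCA, the AP-1 motif, GGAATG, the TEAD motif, and the CArG box of serum response factor had 0 matches on either strand in the 9 windows, beside 6.75%, 12.6% and 1.47% of all windows. GC content lay between 30.0% in the Aspn window and 64.4% in the Bgn window, beside a median of 52.4%. The arrays do not show which start site was used, and a match in these letters is a description and not a binding site.

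After withdrawal of doxycycline, the signals of the 10 genes lay close to those in 3w+Dox cells, as did those of most genes. Withdrawn minus 3w+Dox differences lay between -0.48 for Postn and 0.59 for Lum, with a median of -0.00145 beside 0.03 over all named genes. None of the 10 was called, beside 0.772% of all named genes in either direction, and none differed 2-fold, beside 3.34%. The central 95% of all named genes lay between -0.93 and 0.86, so each of the 10 fell inside the range of most genes, and the counts of 0 are near these backgrounds. The next differences from 0 were those of Aspn at -0.36, Thbs2 at -0.33 and Tnc at -0.16, and the other 5 lay between -0.03 and 0.04. Of those 5, Bgn, Sparc, Fn1 and Thbs1 lay 0.0064, 0.010, 0.12 and 0.13 below the brightest signal of the withdrawn array, so these small differences were measured at the end of the scale. The withdrawn cells were above Day0 by 3.03 to 7.76 log2 units, with all 10 called higher, beside 4.05% of named genes, a count that follows from the same Day0 signals used in the choice. As a share of the 3w+Dox difference, between -9.17% (Lum, which moved further from Day0) and 6.31% (Postn) had been undone, with a median of 0.031%. Over all 1000 genes called higher in 3w+Dox cells the median was 0.583%, with quartiles of -9.43% and 15.6%, so the 10 do not stand apart in this. Both differences share the 3w+Dox array.

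**Figure D2:**
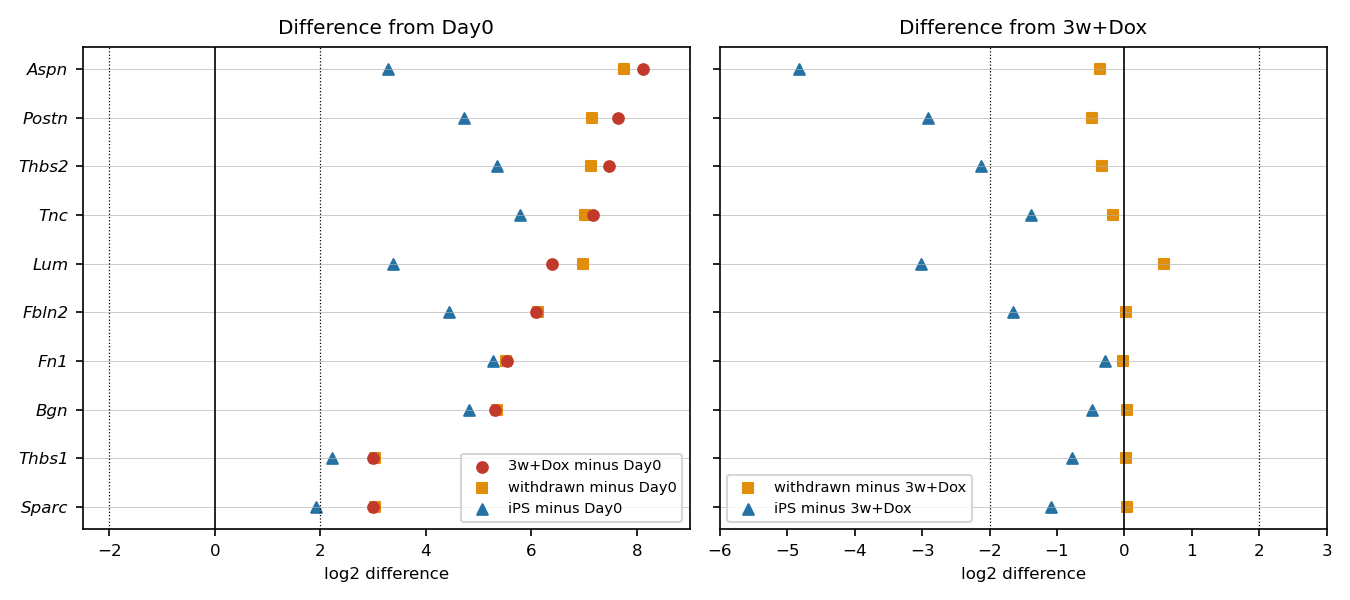
Log2 differences (horizontal axis) of the 10 genes from Day0 (left) and from 3w+Dox (right), with dotted lines at a 4-fold difference. Withdrawn minus 3w+Dox squares lie within 0.59 of 0, while iPS minus 3w+Dox triangles spread between -4.83 for Aspn and -0.28 for Fn1.

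All 10 genes were brighter in iPS cells than at Day0, by 1.91 to 5.79 log2 units with a median of 4.58, and 9 were called higher, beside 4.89% of all named genes. The exception was Sparc, which was 3.77-fold brighter and so just short of 4-fold. Tnc stood furthest from Day0, at 55.1-fold, followed by Thbs2 at 40.6-fold, Fn1 at 38.4-fold and Bgn at 28.4-fold. The smallest differences after Sparc were those of Thbs1 at 4.65-fold and Aspn at 9.75-fold. With dim Day0 signals raised to the 25th percentile, the iPS minus Day0 difference was 2.42 in place of 3.28 log2 units for Aspn and 2.45 in place of 3.37 for Lum, both still called.

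Against 3w+Dox cells, all 10 genes were dimmer in iPS cells, by a median of -1.52 log2 units, and 4 were called lower, beside 5.16% of all named genes. Genes chosen for a high 3w+Dox signal are likely to be dimmer elsewhere, so nothing is read from that count. Aspn was 28.5-fold lower, Lum 8.08-fold, Postn 7.54-fold and Thbs2 4.35-fold. Fbln2, Tnc and Sparc were not called, with differences of -1.65, -1.39 and -1.08. The remaining 3 were within 2-fold, at -0.78 for Thbs1, -0.48 for Bgn and -0.28 for Fn1. Against withdrawn cells the iPS signals gave 3 genes called lower, Aspn, Lum and Postn, beside 5.05% of named genes, and Thbs2 stood at -1.79. At 2-fold, 7 genes were lower in iPS than in 3w+Dox cells, beside 12.4%, and 7 lower than in withdrawn cells, beside 12.5%. At 8-fold 2 were lower than in 3w+Dox cells, beside 1.84%. The 4 genes with the smallest iPS minus 3w+Dox differences, namely Fn1, Bgn, Thbs1 and Sparc, were also the 4 closest to the brightest signal of the 3w+Dox array, at 0.28, 0.24, 0.35 and 0.24 log2 units below it. The part of compression at that end in these small differences was not tested.

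Within each class the genes did not move by equal amounts. Of the proteoglycans, Bgn in iPS cells stayed near its 3w+Dox signal while Aspn and Lum did not. In the thrombospondin pair, Thbs2 was 4.35-fold and Thbs1 1.72-fold lower in iPS than in 3w+Dox cells. Over the centred profiles, the nearest member to Bgn was Fn1, at a distance of 0.31 log2 units, and the nearest to Thbs2 was Tnc at 0.54. Aspn had no close neighbour, with Lum the nearest at 1.47, and the widest distance of all was that between Aspn and Thbs1 at 4.46.

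Of 13268 other genes bright enough to compare, those with the smallest Euclidean distance to the mean centred profile of the 10 were Acta2, the smooth muscle actin gene, at 0.17 log2 units, Fstl1 at 0.26, Thy1, a surface marker of fibroblasts, at 0.32, Dab2 at 0.36 and Lix1l at 0.41. Single genes had partners of their own over the same 4 arrays. Only those of Thbs1 and Fbln2 were closer than Acta2 was to the mean profile. Col12a1, a collagen of fibril surfaces, lay nearest to Postn at 0.22, and Nid1, of basement membranes, nearest to Bgn at 0.22. Timp1, an inhibitor of matrix proteases, lay nearest to Tnc at 0.25, Lox, which cross-links collagen, nearest to Thbs2 at 0.32, and Fscn1, which bundles actin, nearest to Fn1 at 0.29. Fstl1 was nearest to Fbln2 at 0.14, Ank2 nearest to Sparc at 0.17 and H2bc8 nearest to Thbs1 at 0.11. Ms4a6d lay nearest to Lum at 0.34, and Ccdc80 nearest to Aspn at a much wider 1.20. The second nearest were Plod2 for Bgn, Serpina3n for Lum, S1pr3 for Postn, Gas2 for Sparc, Ank2 for Thbs1, Nid1 for Fn1, Thy1 for Fbln2 and Col12a1 for Aspn, with Egln3 second for both Tnc and Thbs2. With 4 points per profile many genes lie close, and these distances describe the arrays only.

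The lists of related genes and those that follow were chosen with earlier results of these data known, so their counts are descriptions only. Those of related genes hold 39 further measured genes. They are proteoglycans, thrombospondins, tenascins, SPARC relatives, fibulins and Tgfbi from the families of the 10, and the CCN proteins, a matricellular family to which none of the 10 belongs. At 3w+Dox, 17 of the 39 were called higher than at Day0, beside 4.31% of all named genes, 1 was called lower, beside 2.88%, and 21 were not called, with a median difference of 1.75. Of 13 further proteoglycans, 5 were higher. They were Ogn, which encodes osteoglycin, by 6.45, Podn, which encodes podocan, by 5.53, Fmod, which encodes the collagen-binding fibromodulin, by 5.22, Prelp by 4.87, and Dcn, which encodes decorin, by 4.09. Chad, which encodes the collagen- and integrin-binding chondroadherin, went the other way. It gave 13.09 at Day0, 10.36 in 3w+Dox cells, 9.76 in withdrawn cells and 6.11 in iPS cells. The remaining 7, among them the corneal keratocan gene Kera at 5.24 to 6.68 in the culture series, were not called.

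Among the other families, Thbs4 was higher in 3w+Dox than in Day0 cells by 5.54 and Comp by 2.55, while Thbs3 was not called at -0.79. Tnn, the tenascin W gene, was higher by 3.16, and Tnr and Tnxb were not called. Fstl1, a secreted relative of Sparc, was higher by 6.26 and Spock3 by 2.20, and the other 5 of 7 SPARC relatives were not called. In other comparisons, Sparcl1 and Smoc1 were called higher in withdrawn cells than at Day0, by 3.14 and 2.16. Smoc2 was called lower in iPS than in 3w+Dox cells, at -3.25. Fbln5 and Fbln1, of elastic fibres and basement membranes, were higher by 3.99 and 3.90, with the other 4 of 6 fibulins not called. Of 6 CCN genes, matricellular proteins that respond to growth factors and stretch, 4 were higher: Ccn4 by 5.58, Ccn5 by 4.58, Ccn2 by 4.03 and Ccn3 by 2.27. Tgfbi, the fasciclin-domain relative of Postn, was higher by 3.81.

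**Figure D3:**
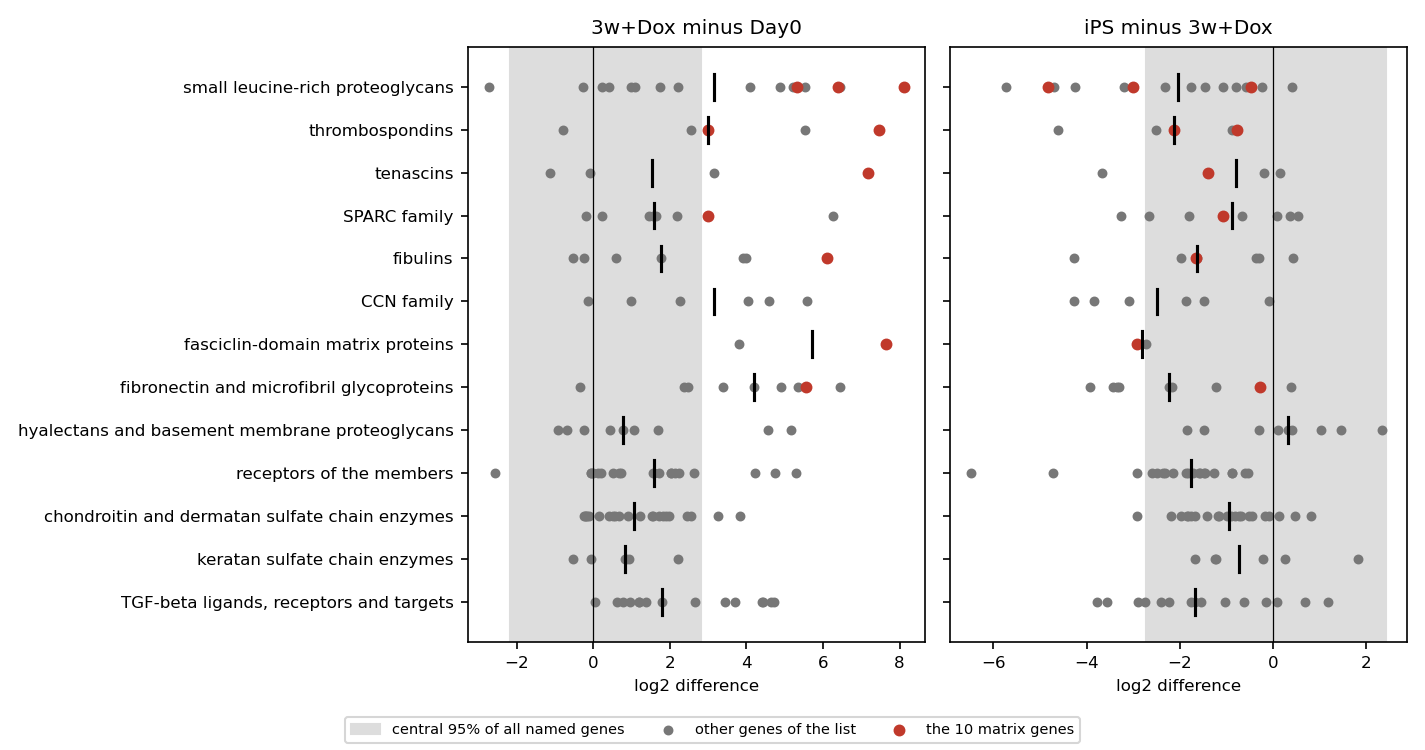
Log2 differences (horizontal axis) for each gene of 13 lists (rows), 3w+Dox minus Day0 on the left and iPS minus 3w+Dox on the right, with the 10 matrix genes in red, list medians as black bars and the central 95% of all named genes in grey. At 3w+Dox all 10 red points lie beyond the grey band, and in iPS cells only Aspn, Lum and Postn do.

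In withdrawn cells 0 of the 39 related genes were called against 3w+Dox cells, beside 0.772% of all named genes, and 2 were at least 2-fold higher: Sparcl1, at 8.29 in withdrawn cells against 6.77 in 3w+Dox cells, and Kera. In iPS cells 15 of the 39 were called lower than in 3w+Dox cells and 0 higher, beside 5.16% and 3.57% of all named genes, with a median of -1.76 beside 0.06 over all named genes. The log2 difference was -5.72 for Fmod, -4.70 for Podn, -4.61 for Thbs4, -4.28 for Fbln5 and -4.27 for Ccn3. Fmod and Fbln5 in iPS cells were within 2-fold of Day0, at -0.50 and -0.29. Against that, Fbln1 in iPS cells stood at -0.38 from 3w+Dox and Dcn at -1.07. Relative to Day0, 5 of the 39 were called higher in iPS cells, beside 4.89% of all named genes, and 3 were called lower, beside 5.9%. The 5 were Fstl1 by 4.45, Fbln1 by 3.53, Ogn by 3.26, Dcn by 3.02 and Ccn2 by 2.15. The 3 were Chad and Efemp1, at -6.98 and -2.51, and Ccn3, at 7.72 in iPS cells against 9.73 at Day0.

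For the lists that follow, the shares of all named genes are 4.31% higher and 2.88% lower for 3w+Dox against Day0, and 4.89% higher and 5.9% lower for iPS against Day0. Of 9 measured fibronectin and microfibril glycoproteins, 8, Fn1 included, were called higher in 3w+Dox than in Day0 cells, among them the microfibril genes Mfap4 by 6.44, Mfap5 by 5.35 and Fbn2 by 4.90. Eln, which encodes elastin, was higher by 4.20 and then stood at 8.19 in withdrawn cells against 9.88 in 3w+Dox cells. Of 9 proteoglycans of hyaluronan networks and basement membranes, 2 were called higher at 3w+Dox: the versican gene Vcan by 5.17 and the perlecan gene Hspg2 by 4.56. Hspg2 in iPS cells was at -0.30 from 3w+Dox, about as near as Fn1, while Col18a1 was 2.33 higher in iPS than in 3w+Dox cells. Hapln1, which links hyaluronan to proteoglycans, was not called in 3w+Dox cells, at 1.70 from Day0.

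Among 20 receptors that bind the 10 proteins, 8 were called higher and 1 lower in 3w+Dox than in Day0 cells, with a median difference of 1.57. Itga8, whose integrin binds tenascin C and fibronectin, was higher by 5.28, Itga5, of the main fibronectin integrin, by 4.74, Lrp1, an endocytic receptor of thrombospondins, by 4.22, and Itgb6, of an epithelial TGF-beta-activating integrin, by 2.62. Cd36, a thrombospondin 1 receptor, was lower, at -2.58. In iPS cells 5 of the 20 were called lower than at Day0 and 3 higher. Cd36 and Itgb6 were furthest below, at -7.30 and -3.86.

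The enzymes that build the sugar chains of the proteoglycans differed less. Of 22 chondroitin and dermatan sulfate enzymes, 4 were called higher and 0 lower in 3w+Dox than in Day0 cells, with a median of 1.06. They were Dse, the epimerase that turns chondroitin into dermatan sulfate, by 3.83, Csgalnact1, which starts chondroitin chains, by 3.26, and the sulfotransferases Chst11 by 2.56 and Chst15 by 2.44. Dse alone of the 22 was called higher in iPS cells than at Day0, by 3.73, and Csgalnact2 alone was called lower, at -2.14. Of 6 keratan sulfate enzymes, which serve lumican, Chst2 was called higher in 3w+Dox cells, by 2.22. Chst1, B4galt1 and B3gnt7 were not called there, at 0.94, 0.84 and 0.82, and B3gnt7 was 2.64 higher in iPS cells than at Day0, with B4galt4 at -1.31.

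Several of the 10 genes are known targets of TGF-beta. Of 15 measured ligands, receptors, binding proteins and targets of that pathway, 7 were called higher and 0 lower in 3w+Dox than in Day0 cells, with a median of 1.78. The furthest apart was Ltbp1, which holds latent TGF-beta in the matrix, by 4.71. Next were Lrrc32, which tethers latent TGF-beta to cells, by 4.64, Ltbp2 by 4.44, and Eng, a coreceptor, by 4.41. In iPS cells 4 of the 15 were called higher than at Day0, with Eng at 4.49 and Ltbp1 at 3.03, and 2 were called lower, the ligand gene Tgfb2 at -2.83 and the receptor gene Tgfbr2 at -2.13.

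Markers of some cell types were higher in 3w+Dox than in Day0 cells, as the matrix genes were, and those of others were not. Of 12 fibroblast markers, 10 lay at or above 6.67 in 3w+Dox cells, 10 in withdrawn cells and 8 in iPS cells, against 2 at Day0. Their summed signal, on the log2 scale, was 14.2 in 3w+Dox cells, 14.42 in withdrawn cells and 11.92 in iPS cells, against 9.60 at Day0. Of the 12, 10 were called higher in 3w+Dox cells than at Day0 and 4 in iPS cells than at Day0. Tcf21 and Pi16, markers of lung and adventitial fibroblasts, were below 6.67 on every array. Of 8 smooth muscle and pericyte markers, 7 were called higher in 3w+Dox cells than at Day0 and 4 in iPS cells than at Day0. Their summed signal was 14.29 in 3w+Dox, 14.09 in withdrawn and 12.42 in iPS cells, against 10.02 at Day0. Macrophage markers numbered 11, and all 11 were at or above 6.67 in 3w+Dox cells and 6 in iPS cells, against 3 at Day0. In withdrawn cells 10 of the 11 were. Against Day0, 10 were called higher in 3w+Dox cells and 0 in iPS cells, where the median difference was 0.22 and the brightest was Cd68 at 10.25. Their summed signal was 13.67 in 3w+Dox, 14.10 in withdrawn and 11.06 in iPS cells, against 10.22 at Day0. Msln and Upk1b, of 5 mesothelial markers, were higher by 3.22 and 3.10 in 3w+Dox cells than at Day0, while Wt1, Upk3b and Lrrn4 differed by 0.32, 0.03 and -0.21. The summed signals, which those first 2 genes carry in 3w+Dox cells, were 12.82 in 3w+Dox, 10.24 in withdrawn and 9.68 in iPS cells, against 9.96 at Day0. Endothelial markers had 1 of 7 at or above 6.67 in 3w+Dox cells, 0 in withdrawn cells and 4 in iPS cells, against 1 at Day0. Their summed signal was 9.05 in 3w+Dox, 8.45 in withdrawn and 10.28 in iPS cells, against 11.72 at Day0. Kdr alone, at 11.57, carried the Day0 sum, and Pecam1, at 9.22, was the brightest in iPS cells. The part of these cell types in the matrix gene differences was not tested, and more cells of a type cannot be told apart here from more RNA per cell.

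The labels were checked in the same way. Of 8 club cell markers, 6 were at or above 6.67 in 3w+Dox cells, 8 in withdrawn cells and 1 in iPS cells, against 8 at Day0. In 3w+Dox cells 5 of the 8 were called lower than at Day0 and 0 higher, with a median difference of -3.08. Their summed signal was 14.45 in 3w+Dox, 15.19 in withdrawn and 9.16 in iPS cells, against 16.21 at Day0. Of 7 alveolar type 2 markers, 7 were at or above 6.67 in 3w+Dox cells, 7 in withdrawn cells and 2 in iPS cells, against 7 at Day0. Between 3w+Dox and Day0, 0 of these 7 were called higher and 0 lower. Their summed signal was 14.89 in 3w+Dox, 15.16 in withdrawn and 9.18 in iPS cells, against 15.55 at Day0. Of 8 ciliated cell markers, 2 were at or above 6.67 in 3w+Dox cells, 7 in withdrawn cells and 2 in iPS cells, against 8 at Day0. In 3w+Dox cells 7 of these 8 were called lower than at Day0 and 0 higher, with a median difference of -3.32. The ciliated summed signal was 10.54 in 3w+Dox, 12.57 in withdrawn and 9.89 in iPS cells, against 13.89 at Day0. The Day0 array thus held bright alveolar type 2 and ciliated markers beside those of club cells. Of 9 pluripotent cell markers, 8 were at or above 6.67 in iPS cells and 0 on each of the other arrays, and Dppa5a was the one below it in iPS cells, at 5.30. The matrix genes in iPS cells were measured on an array where the pluripotency markers were bright and 8 of 12 fibroblast markers were too, with Prrx1 at 10.06 and Thy1 at 9.73. Of the 8 smooth muscle and pericyte markers, 6 were at or above 6.67 in iPS cells, with Acta2 at 11.27. The labels do not say whether these cells were grown on feeder cells, and the part of any such cells in the iPS matrix signals was not tested.

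**Figure D4:**
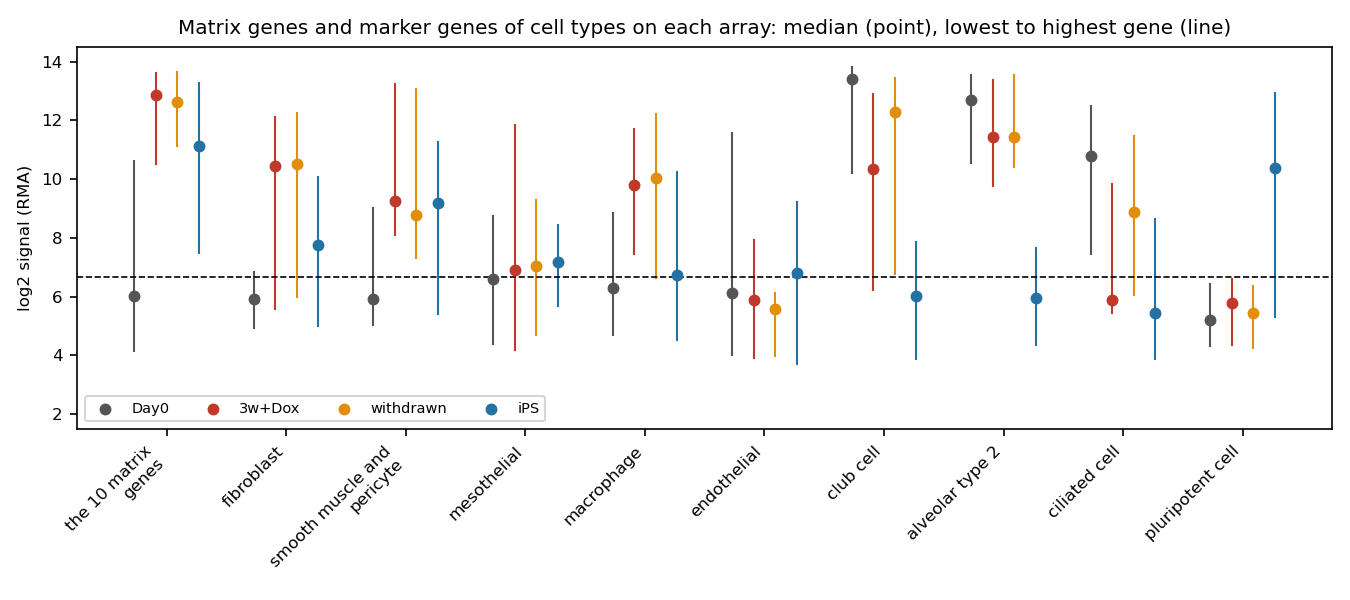
Log2 signal (vertical axis) of the 10 matrix genes and of 9 marker lists (horizontal axis) on the 4 arrays, with the median gene as a point and the lowest to the highest gene as a line. The medians of fibroblast, of smooth muscle and pericyte, and of macrophage markers are high in 3w+Dox and withdrawn cells, as are those of the matrix genes. In iPS cells the fibroblast median is 7.76, the smooth muscle and pericyte median 9.17 and the macrophage median 6.74.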

How the data were processed

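Affymetrix arrays measured RNA of 4 mouse cell populations, 1 array each. Biotin-labelled targets were made from total RNA (RNeasy, Ambion WT kit), per the labels. The authors deposited log2 signals from RMA (affy, R 3.0.2), per the submitters' processing notes. Their range, 1.70 to 13.85, fits a log2 scale. The platform annotation named 23185 of 25206 probe sets, each with 1 gene, and all matched RefSeq gene IDs. The version of the probe annotation is not stated.

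Differences and calls were computed in Python 3.11.15 with pandas 2.3.3, with no further normalization. Upstream windows came from RefSeq tables. The 10 genes and 22 lists (210 genes, 204 measured) were chosen with earlier results of these data known. Named were all 10 genes, every called gene of the 7 related families, in other lists the 4 with the largest 3w+Dox and the 2 with the largest iPS difference from Day0, and the genes nearest in profile (5 to the mean, 2 to each gene). Kera, Thbs3, Tnr, Tnxb, Msln, Upk1b, Tgfb2, Tgfbr2 and single markers were added after their values were seen. Alternatives were 2-fold and 8-fold thresholds, no filter or a 75th percentile filter (8.82), a second quantile normalization, centring and a floor at the 25th percentile.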

Additional observations from a re-analysis of the deposited data

How the results depend on the processing

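All 10 genes stayed called higher in 3w+Dox than in Day0 cells at 2-fold, with either filter on dim genes and under both rescalings and the floor. At 8-fold 8 were, with Thbs1 and Sparc just short of it. Called genes for iPS against 3w+Dox numbered 7 at 2-fold and 2 at 8-fold in place of 4, and for iPS against withdrawn cells 7 at 2-fold in place of 3. Of 180 differences of single genes recomputed under 3 other scalings, 174 moved by less than 1.5-fold. The 6 that moved further were those of Aspn and Lum from Day0 with the floor, which raises only dim signals. For withdrawn cells they were 6.89 in place of 7.76 (Aspn) and 6.05 in place of 6.97 (Lum). No called difference changed sign in these 180. Of 234 list medians, 234 moved by less than 1.5-fold. Centring left the median of all genes at -0.12 for 3w+Dox minus Day0 and 0.11 for iPS minus 3w+Dox. No paired analysis was possible because each population has 1 array, and for the same reason no array could be left out.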
